A study of Homo sapiens with 12 samples.

Results

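The transcripts described here encode 48 subunits of the oxidative phosphorylation system, taken from a list of symbols and matched to 48 of the 58735 genes of the count table. Mitochondrial DNA encodes 13 of them (symbols that start with MT-) and nuclear DNA the other 35. Complex I is represented by 7 mitochondrial and 14 nuclear genes, complex II by 4 nuclear genes, complex III by 1 mitochondrial and 6 nuclear genes, complex IV by 3 mitochondrial and 6 nuclear genes, and complex V by 2 mitochondrial and 5 nuclear genes. NDUFA4, first described as a complex I protein, was placed in complex IV. RNA was sequenced from 2 human endometrial cell lines, HEC-1A, an epithelial line from an adenocarcinoma, and T-HESC, a line of stromal fibroblasts immortalised with telomerase. Each was exposed to AG-205, a compound used as a ligand of the membrane protein PGRMC1, at 15 µM over 32 h, or to its solvent DMSO. The 4 groups of cell line and treatment hold 3 libraries each, 12 in all, from 3 independent culture experiments. Each tissue compartment is represented by 1 cell line, so a difference between the lines is a difference between these cultures and not between epithelium and stroma in general.

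Oxidative phosphorylation takes place in the inner mitochondrial membrane. Complexes I and II pass electrons from NADH and succinate to ubiquinone, complex III passes them on to cytochrome c, complex IV reduces oxygen, and complex V, the ATP synthase, uses the proton gradient that complexes I, III and IV build. Complexes I, III, IV and V are assembled from subunits of both genomes, whereas complex II is made of nuclear subunits alone. The heavy and light strands of mitochondrial DNA are transcribed as long precursors from which the mRNAs are cut, so the mRNAs of one strand share their start of transcription, and their levels are set apart by processing and decay.

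Libraries held 7168542 to 15178276 counts, and a chi-square over genes between same-group libraries came to 1.79 to 207 for each degree of freedom, so no library repeated another. The spread within groups, as the biological coefficient of variation, was 10.1% for HEC-1A and 33.6% for T-HESC. Of the markers of the labelled cell types, 7 of 8 epithelial markers were called lower and 8 of 8 stromal markers higher in T-HESC with DMSO than in HEC-1A with DMSO. The exception was KRT19, at 97.7 to 104 CPM in HEC-1A and 103 to 110 CPM in T-HESC. The 8 epithelial markers summed to 1419 to 1569 CPM in HEC-1A with DMSO and to 238 to 341 CPM in T-HESC with DMSO, where CDH1, ESRP1 and GRHL2 had at most 3 counts in every library, and 8 stromal markers summed to 13.8 to 22.3 CPM and 28741 to 36327 CPM. CPM here are counts scaled to the library total after adjustment by the TMM factor computed over all 12 libraries.

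The mitochondrial genes lie next to each other on a genome of 16569 bases, and several share bases or have near copies in nuclear DNA, which bears on how their reads could be counted. The pair with the longest shared stretch is printed here because it limits the counts of MT-ATP8, a short subunit of the ATP synthase membrane sector. It lies at chrM:8366-8572 on the plus strand of GRCh38, and its last 46 bases, in capitals, are also the first bases of MT-ATP6, which encodes the subunit that carries the proton channel of the ATP synthase.

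MT-ATP8: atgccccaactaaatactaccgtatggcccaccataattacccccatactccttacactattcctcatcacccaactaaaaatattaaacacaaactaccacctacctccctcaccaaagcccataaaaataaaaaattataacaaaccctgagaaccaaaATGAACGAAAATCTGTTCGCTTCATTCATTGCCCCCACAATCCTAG

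The same holds to a smaller degree for MT-ND4L, a membrane subunit of complex I at chrM:10470-10766, whose last 7 bases, in capitals, are shared with MT-ND4.

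MT-ND4L: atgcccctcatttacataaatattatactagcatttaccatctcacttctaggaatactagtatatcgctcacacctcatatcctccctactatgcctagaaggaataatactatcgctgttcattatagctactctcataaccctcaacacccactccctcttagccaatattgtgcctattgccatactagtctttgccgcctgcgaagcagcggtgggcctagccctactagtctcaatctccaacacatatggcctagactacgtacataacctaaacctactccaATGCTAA

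Each of the 13 mitochondrial genes matched the nuclear part of GRCh38 in at least 2 places. The best match of MT-ND2 lay at chr1:629640-630681 with 98.4% identity over the whole gene, that of MT-CO1 at chr1:631074-632616 with 98.6%, and that of MT-CYB at chr5:94569540-94570680 with 86.0%. The count table also lists such nuclear copies: MTATP6P1 had between 15.4 and 21.1 counts for every 100 counts of MT-ATP6 in the 12 libraries. How reads that match both places were counted is not given in the sources used here, so the mitochondrial counts are those left after that choice.

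The 13 mitochondrial mRNAs together took 4.58%, 4.06% and 4.11% of all counts in HEC-1A with DMSO and 4.25%, 4.26% and 4.60% with AG-205. In T-HESC they took 1.90%, 1.83% and 1.92% with DMSO and 1.26%, 2.24% and 1.65% with AG-205. The HEC-1A libraries all lay above the T-HESC libraries, and the AG-205 and DMSO ranges overlapped in both lines. In bulk RNA, fewer cells that carry a transcript and less of it per cell cannot be told apart. Set against the summed counts of the 35 nuclear genes, the mitochondrial counts were 8.78, 8.43 and 8.26 times as many in HEC-1A with DMSO and 9.97, 10.3 and 8.92 times as many with AG-205, with no overlap. In T-HESC the ratio was 5.54, 5.00 and 5.66 with DMSO and 2.36, 6.27 and 5.94 with AG-205, and AG-205 replicate 1 lay below all others.

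**Figure D1:**
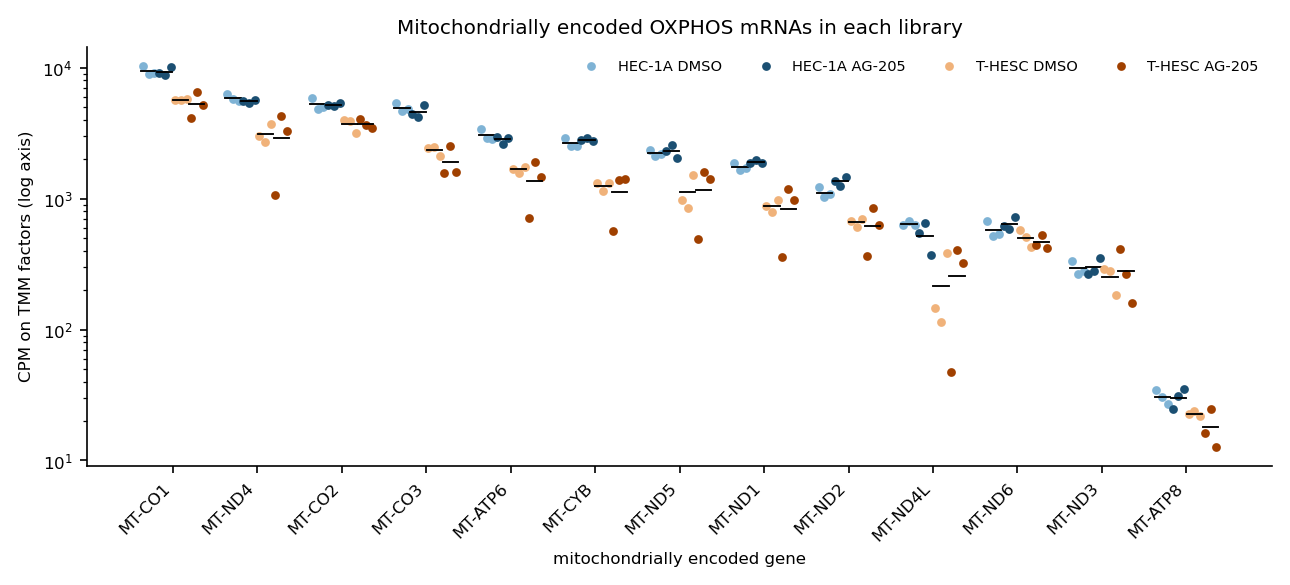
Level of each of the 13 mitochondrially encoded mRNAs (x axis, ordered by the HEC-1A DMSO mean) in CPM on a log axis, 1 point per library and a bar at the mean of the 3 libraries of a group. MT-CO1 was near 9430 CPM in HEC-1A with DMSO and 5673 CPM in T-HESC with DMSO, and T-HESC AG-205 replicate 1 is the low point in MT-ND4, MT-ND1 and MT-ND4L.

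Scaled to the length of the gene, the order of the levels in HEC-1A with DMSO ran from MT-CO2 (a mean of 7672 CPM per kb over 3 libraries), a core subunit of cytochrome c oxidase, to MT-ATP8 (148 CPM per kb). MT-CO3, at 6316 CPM per kb, and MT-CO1, at 6115, overlapped each other and lay above MT-ATP6 and MT-ND4, at 4505 and 4265, which also overlapped. MT-CYB (2317 CPM per kb), the mitochondrial subunit of complex III, and MT-ND4L (2161) overlapped, and MT-ND1 (1827) was apart from both. MT-ND5 (1223), MT-ND6 (1100) and MT-ND2 (1068) overlapped with their neighbours, and MT-ND3 (848) stood alone above MT-ATP8. The first 6 places in T-HESC with DMSO went to the same genes, MT-CO2 (5383 CPM per kb), MT-CO1 (3679), MT-CO3 (3005), MT-ATP6 (2461), MT-ND4 (2275) and MT-CYB (1101), and there the ranges of MT-CO1 and MT-CO3 did not overlap. Below them the ranges of neighbours from MT-ND6 (958) to MT-ND5 (615) overlapped throughout, and MT-ATP8 was again last at 110 CPM per kb.

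As a share of the summed mitochondrial mRNA counts, which does not depend on the scaling between libraries, MT-CO1 was the largest part in every library, between 24.2% and 28.9%. MT-CO2 took 13.5% to 14.2% in HEC-1A with DMSO and 14.4%, 18.3% and 18.9% in T-HESC with DMSO, without overlap. MT-ND6, a complex I subunit and the mRNA read from the light strand, took 1.43% to 1.64% in HEC-1A with DMSO and 1.93% to 2.65% in T-HESC with DMSO, again without overlap. Its mRNA lacks the long poly(A) tail of the others, and these libraries were made from poly(A) RNA. Whether the counting used strand is not given in the sources used here, so reads of MT-ND6 and reads of its opposite strand cannot be told apart. MT-ND2 took 2.97%, 2.87% and 2.97% in HEC-1A with DMSO and 3.69%, 3.43% and 3.76% with AG-205, and all AG-205 libraries lay above all DMSO libraries. The shares of MT-ND1 (4.54% to 4.68% with DMSO and 4.86% to 5.39% with AG-205) and MT-CYB (6.98% to 7.00% and 7.05% to 8.04%) were apart in the same direction, and that of MT-ND4 (15.3% to 15.9% and 14.5% to 15.2%) in the opposite one.

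AG-205 in HEC-1A left the mitochondrial mRNAs without a called change and was accompanied by lower counts of 3 nuclear subunits, 1 each in complexes II, III and V. Of 47 subunits tested, 0 were higher and 3 lower with AG-205 at an adjusted p under 0.05 (edgeR's quasi-likelihood test), against 7.35% higher and 4.28% lower among all 14122 genes tested. These 3 were 6.38% of the 47. At an unadjusted p under 0.05, 1 subunit was higher and 4 were lower, against 14.6% and 11.5% of all genes. With a limit of 1 on the size of the log2 fold change in addition, 0 members were called, against 2.58% of all genes higher and 0.205% lower. DESeq2 called 1 higher, MT-ND2, and the same 3 lower. NDUFV2, the remaining member, had too few counts to be tested (0.5 to 1.4 CPM in HEC-1A), although it encodes a core iron-sulphur subunit of complex I. It shares 28.4% of its exon bases with a gene on the same strand that was listed at 0 counts in all libraries.

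SDHA, the flavoprotein subunit of complex II that oxidises succinate, had 404.6, 386.3 and 384.4 CPM with DMSO and 280.5, 217.1 and 253.1 CPM with AG-205. All AG-205 libraries lay below all DMSO libraries, and the level was 1.53-fold lower (log2 fold change -0.61 ± 0.11, SE; adjusted p = 0.00287). SDHA has nuclear pseudogenes in the table with 143 to 881 counts in all per library. How reads that match both SDHA and these were counted is not given in the sources used here, so its counts are uncertain to an unknown degree. An overlapping gene on the same strand in the newer annotation is not in the count table. The other subunits of complex II, SDHB, SDHC and SDHD, gave log2 fold changes of -0.22, 0.06 and -0.02 and were not called.

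CYC1, the cytochrome c1 subunit of complex III, had 259.1, 239.7 and 223.1 CPM with DMSO and 169.6, 162.6 and 184.1 CPM with AG-205. The groups did not overlap, and the level was 1.36-fold lower (log2 fold change -0.45 ± 0.10, SE; adjusted p = 0.0107). ATP5F1B, the catalytic beta subunit of the ATP synthase, had 686.7, 639.3 and 644.9 CPM with DMSO and 496.8, 454.3 and 519.6 CPM with AG-205. Its groups did not overlap either, with a 1.31-fold lower level (log2 fold change -0.38 ± 0.09, SE; adjusted p = 0.0207). SDHA was called whichever library was left out, whereas CYC1 and ATP5F1B both lost their calls without DMSO replicate 1, DMSO replicate 2 or AG-205 replicate 2, and ATP5F1B also without DMSO replicate 3. In a fit of all 12 libraries, in which the larger spread of T-HESC enters, 0 members were called.

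**Figure D2:**
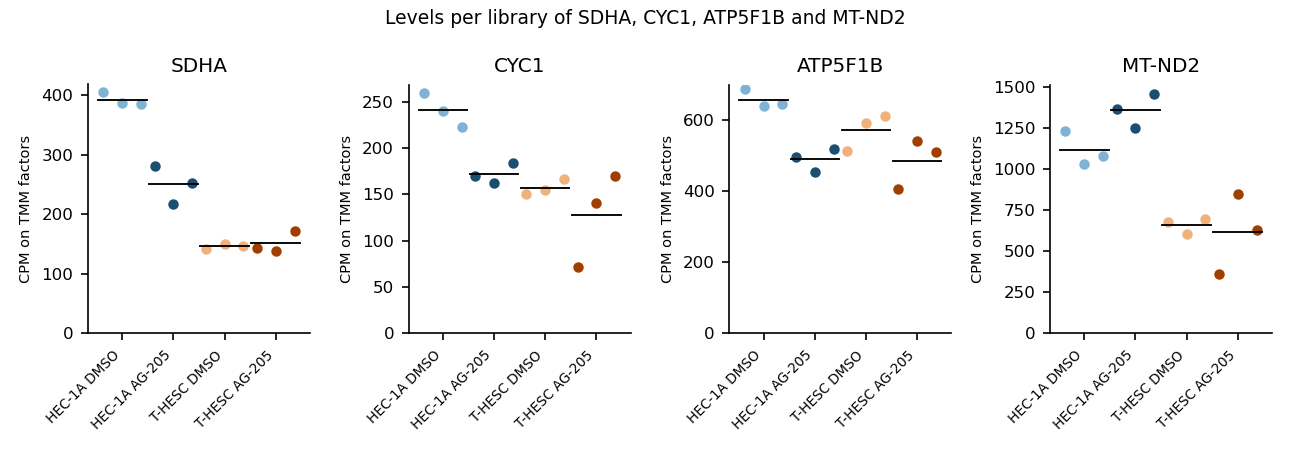
Levels of SDHA, CYC1, ATP5F1B and MT-ND2 in CPM (y axes from 0) in each library of the 4 groups, with a bar at the mean of 3 libraries. In HEC-1A the first 3 genes sit lower with AG-205 in every library, SDHA at 217.1 to 280.5 CPM against 384.4 to 404.6 CPM, and the T-HESC ranges of AG-205 and DMSO overlap for all 4 genes.

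Among the other nuclear members in HEC-1A, NDUFS3, a subunit of the complex I arm that faces the matrix, gave the smallest p of its complex (log2 fold change -0.23 ± 0.10, SE; adjusted p = 0.182), with 69.6, 62.4 and 68.8 CPM with DMSO and 50.9, 54.6 and 61.9 CPM with AG-205. COX5A, a nuclear subunit of complex IV, did so for its complex, at -0.15 ± 0.13 (adjusted p = 0.485). By complex, the median log2 fold change of the nuclear members tested was -0.09 in complex I (13 genes), -0.12 in complex II (4), -0.09 in complex III (6), 0.03 in complex IV (6) and -0.13 in complex V (5), beside 0.01 over all genes. In 6 of the 34 nuclear members tested, every AG-205 library was below every DMSO library, namely SDHA, CYC1, ATP5F1B, NDUFS3, NDUFS1 and ATP5F1A, against 18.2% of all genes. AG-205 replicate 3, the shallowest library, held all 35 nuclear members above the mean of the other AG-205 libraries, by 0.01 to 0.88 on the log2 scale. Without it, 13 nuclear members were lower and 1 mitochondrial member, MT-ND2, was higher, against 13.3% of all genes lower and 14.5% higher in that fit. Those 13 were the 3 above with ATP5F1A, ATP5F1C, ATP5PB, COX5A, NDUFB3, NDUFB5, NDUFS3, SDHB, SDHD and UQCRFS1. In the same HEC-1A libraries the summed epithelial markers went from 1419 to 1569 CPM with DMSO to 2050 to 2125 CPM with AG-205, with 3 of 8 called higher (KRT8, KRT19 and CLDN4) and none of the 8 at the floor of 3 counts, and their part in these differences was not tested.

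Of the mitochondrial mRNAs in HEC-1A, MT-ND2, a membrane subunit of complex I, came nearest to a call: it had 1227, 1029.6 and 1080.1 CPM with DMSO and 1362, 1248 and 1457 CPM with AG-205, and the groups did not overlap, against 14.2% of all genes that were higher in this way (log2 fold change 0.32 ± 0.11, SE; adjusted p = 0.0703). The other complex I mRNAs gave log2 fold changes of 0.16 (MT-ND1), 0.07 (MT-ND3), -0.05 (MT-ND4), -0.26 (MT-ND4L), 0.09 (MT-ND5) and 0.20 (MT-ND6). MT-CYB of complex III gave 0.13, the core subunits of complex IV gave 0.02 (MT-CO1), 0.03 (MT-CO2) and -0.07 (MT-CO3), and the membrane subunits of complex V gave -0.08 (MT-ATP6) and 0.0032 (MT-ATP8). The SE of these values ranged from 0.10 to 0.15, and for MT-CO1 the 95% interval of the log2 fold change ran from -0.22 to 0.26.

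**Figure D3:**
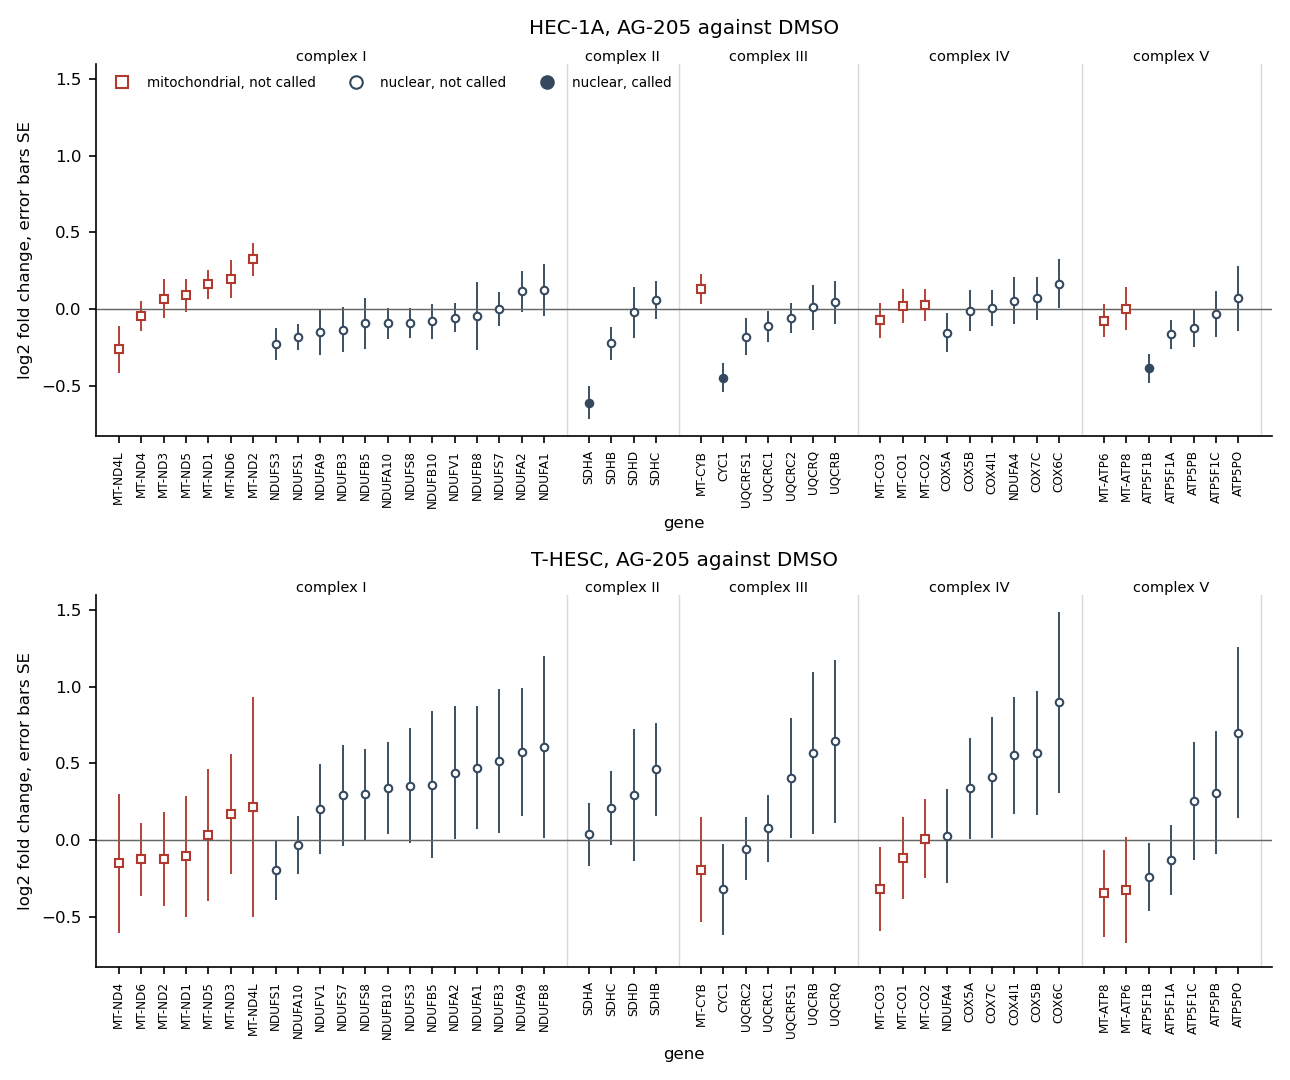
Log2 fold change with AG-205 (y axis, error bars SE) of each member tested, by complex, in HEC-1A (top) and T-HESC (bottom); squares are mitochondrial and circles nuclear genes, filled where the adjusted p is under 0.05. The filled circles are SDHA (-0.61), CYC1 (-0.45) and ATP5F1B (-0.38) in HEC-1A, and no symbol is filled in T-HESC, where the error bars are wider.

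In T-HESC no member was called, and the side of 0 on which most nuclear members lay changed without AG-205 replicate 1. Of 47 members tested, 0 were higher and 0 lower with AG-205 by edgeR's quasi-likelihood test, 0 had an unadjusted p under 0.05, and DESeq2 called 0. Among all 13753 genes tested, 0.08% were higher and 0.0% lower, and at an unadjusted p under 0.05 these shares were 3.58% and 1.8%. In none of the 47 were the groups apart, against 6.23% of all genes higher and 4.7% lower in every library. The log2 fold change was positive in 28 of 34 nuclear members (median 0.34) and negative in 9 of 13 mitochondrial members (median -0.12), beside a median of 0.02 over all genes. Without AG-205 replicate 1, 30 of 34 nuclear members were negative and 7 of 13 mitochondrial members positive.

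The nuclear members with the smallest p in each complex were NDUFA9 in complex I (0.57 ± 0.42, SE), a supernumerary subunit, SDHB in complex II (0.46 ± 0.30), which holds iron-sulphur clusters, UQCRQ in complex III (0.64 ± 0.53), COX6C in complex IV (0.90 ± 0.59) and ATP5PO in the stalk of complex V (0.70 ± 0.56), each with an adjusted p of 0.993. COX6C had 62.4, 72.8 and 55.9 CPM with DMSO and 233.9, 67.2 and 45.1 CPM with AG-205, so that its positive value came from 1 library while another lay below all DMSO libraries. SDHA had 142.6, 150.8 and 147.0 CPM with DMSO and 142.8, 137.9 and 172.6 CPM with AG-205, with a log2 fold change of 0.04 (95% interval -0.43 to 0.50). The 13 mitochondrial mRNAs gave log2 fold changes of -0.11 (MT-ND1), -0.12 (MT-ND2), 0.17 (MT-ND3), -0.15 (MT-ND4), 0.21 (MT-ND4L), 0.03 (MT-ND5), -0.13 (MT-ND6), -0.19 (MT-CYB), -0.12 (MT-CO1), 0.01 (MT-CO2), -0.32 (MT-CO3), -0.33 (MT-ATP6) and -0.35 (MT-ATP8), with SEs from 0.24 to 0.72. The 95% interval of MT-CO1 ran from -0.73 to 0.50.

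AG-205 replicate 1 of T-HESC stood apart in the members of both genomes. Measured as the log2 of CPM + 0.5 minus the mean of the other AG-205 libraries, 28 of 35 nuclear members were above 0, up to 2.08, and 11 of 13 mitochondrial members were below 0 with a median of -1.01. MT-ND4, a core subunit of complex I, had 1069 CPM there and 4304 and 3262 CPM in the other AG-205 libraries. MT-ND4L had 47.1 CPM there and 402.0 and 319.6 CPM in the others. MT-CO2 and MT-ND3 went the other way, with 4018 against 3632 and 3453 CPM and with 413.3 against 263.3 and 160.6 CPM. Among nuclear members, UQCRB, which binds ubiquinone in complex III, had 287.6 CPM against 105.2 and 64.3 CPM, whereas CYC1 had 72.1 CPM against 141.0 and 169.8 CPM. Nuclear members whose canonical transcript is shorter than 1000 bases deviated by a median of 1.23 (14 genes) and the longer ones by 0.72 (21 genes). This was not particular to the members. In this library, deviation and transcript length gave a Spearman correlation of -0.357 over 13701 genes and of -0.324 over the 35 nuclear members. This is a description over genes that share 1 library. Nor was it particular to this library. Over all genes the correlation was -0.375 in HEC-1A DMSO replicate 1 and 0.341 in T-HESC DMSO replicate 3. T-HESC AG-205 replicate 1 stood apart as a whole. Its chi-square for each degree of freedom was 160 and 207 against the other AG-205 libraries, which gave 64.5 between themselves. Its stromal markers went in both directions. COL1A1 had 1375 CPM there against 4220 and 6968 CPM, whereas VIM had 7753 CPM against 3590 and 3513 CPM. The part of this in the members' values was not tested. Without this library the nuclear members tested turned to the other side, with 30 of 34 negative (median -0.16), and the mitochondrial members were split, with 7 of 13 positive (median 0.0036). The smallest adjusted p was then 0.680, with 0 at an unadjusted p under 0.05.

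**Figure D4:**
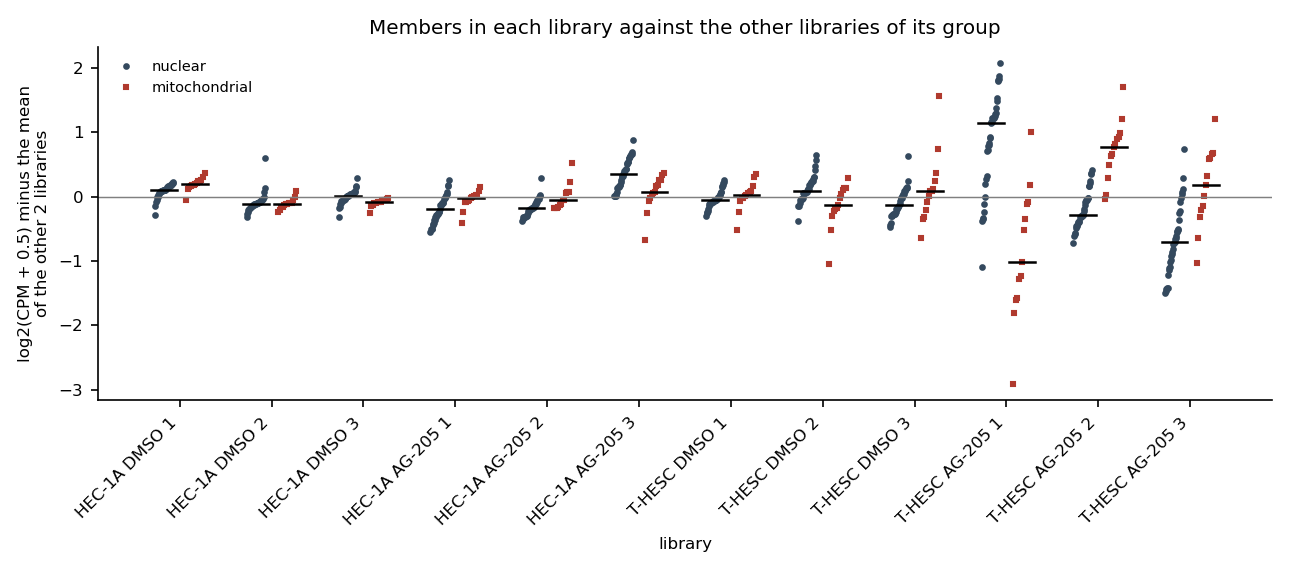
Deviation of each member in each of the 12 libraries (x axis) from the mean of the other libraries of its group, as log2(CPM + 0.5) (y axis), with circles for the 35 nuclear and squares for the 13 mitochondrial members and a bar at the median. T-HESC AG-205 replicate 1 has the widest spread, with mitochondrial members at a median of -1.01, and in HEC-1A AG-205 replicate 3 all nuclear members are above 0.

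The AG-205 effects of the lines were compared directly as the effect in T-HESC minus that in HEC-1A. Of 48 members tested, 0 were called in either direction by edgeR's quasi-likelihood test or by DESeq2, and 1, SDHA, had an unadjusted p under 0.05, while 0.0434% of all 16132 genes were called higher and 0.13% lower, and 2.73% and 3.63% had an unadjusted p under 0.05 in those directions. SDHA differed by 0.66 ± 0.21 on the log2 scale (SE; adjusted p = 0.494), so that the call in HEC-1A alone was not shown to be particular to that line. SDHB, of the same complex, gave 0.69 ± 0.32 (adjusted p = 0.787). The nuclear members with the smallest p in the other complexes were NDUFA9 (0.72 ± 0.46), UQCRFS1, the Rieske iron-sulphur protein of complex III (0.59 ± 0.43), COX5A (0.50 ± 0.36) and ATP5PB (0.44 ± 0.44). The 13 mitochondrial differences were -0.24 (MT-ND1), -0.43 (MT-ND2), 0.11 (MT-ND3), -0.08 (MT-ND4), 0.49 (MT-ND4L), -0.04 (MT-ND5), -0.31 (MT-ND6), -0.30 (MT-CYB), -0.12 (MT-CO1), -0.0040 (MT-CO2), -0.23 (MT-CO3), -0.23 (MT-ATP6) and -0.34 (MT-ATP8), with SEs from 0.24 to 0.84.

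Between the lines without AG-205, the mitochondrial mRNAs were lower in T-HESC than in HEC-1A, while nuclear members differed in both directions. In the comparison of the DMSO groups, 10 of 13 mitochondrial members were lower in T-HESC and 0 higher, against 29.5% of all genes lower and 29.3% higher, and in 11 of 13 every T-HESC library lay below every HEC-1A library, against 38.4% of all genes. Of 35 nuclear members, 3 were higher and 4 lower, 8.57% and 11.4%, each a smaller share than among all genes. The groups were apart in 10 nuclear members that were higher and 13 that were lower in T-HESC, against 36.9% and 38.4% of all genes. With the limit of 1 on the size of the log2 difference, 3 mitochondrial and 2 nuclear members were lower and 1 nuclear member higher, against 22.2% of all genes lower and 22.1% higher. The median log2 difference was -0.87 over the mitochondrial and -0.09 over the nuclear members, beside -0.02 over all genes.

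MT-CO3, a subunit of the catalytic core of complex IV, had 5395, 4649 and 4812 CPM in HEC-1A and 2438, 2497 and 2132 CPM in T-HESC, 2.09-fold lower (log2 difference -1.07 ± 0.20, SE; adjusted p = 0.000572). MT-CYB had 2881, 2509 and 2543 CPM in HEC-1A and 1309, 1152 and 1309 CPM in T-HESC, also 2.09-fold lower (-1.07 ± 0.26, SE; adjusted p = 0.00374). Neither gene's groups overlapped. MT-ND4L showed the largest log2 difference, -1.56 ± 0.60 (adjusted p = 0.0407), and also the widest spread within T-HESC, with 147.2, 114.9 and 385.3 CPM against 624.5, 669.3 and 631.3 CPM in HEC-1A. The other called genes of complex I were MT-ND5 (-0.98 ± 0.34), MT-ND1 (-0.98 ± 0.31), MT-ND4 (-0.90 ± 0.35) and MT-ND2 (-0.75 ± 0.24). MT-ATP6 (-0.87 ± 0.27), MT-CO1 (-0.73 ± 0.19) and MT-CO2 (-0.51 ± 0.17) were called too. The 3 without a call were MT-ATP8 (-0.43 ± 0.23; adjusted p = 0.121), MT-ND3 (-0.22 ± 0.31; adjusted p = 0.557) and MT-ND6 (-0.19 ± 0.18; adjusted p = 0.375). The mitochondrial rRNAs, measured as what poly(A) selection leaves of them, were not called either, at 0.07 and -0.29 on the log2 scale. When libraries were corrected for GC content and transcript length within each line, an alternative chosen after seeing the data, 4 of the 10 calls were left (MT-CO1, MT-CO2, MT-CO3 and MT-CYB), against 33.8% of all genes lower. This correction sets each library against the mean of its line over AG-205 and DMSO, so it cannot remove a GC or length trend between the lines. Leaving out T-HESC DMSO replicate 2 or HEC-1A DMSO replicate 1 left 5 calls, against 25.7% and 26.0% of all genes lower.

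**Figure D5:**
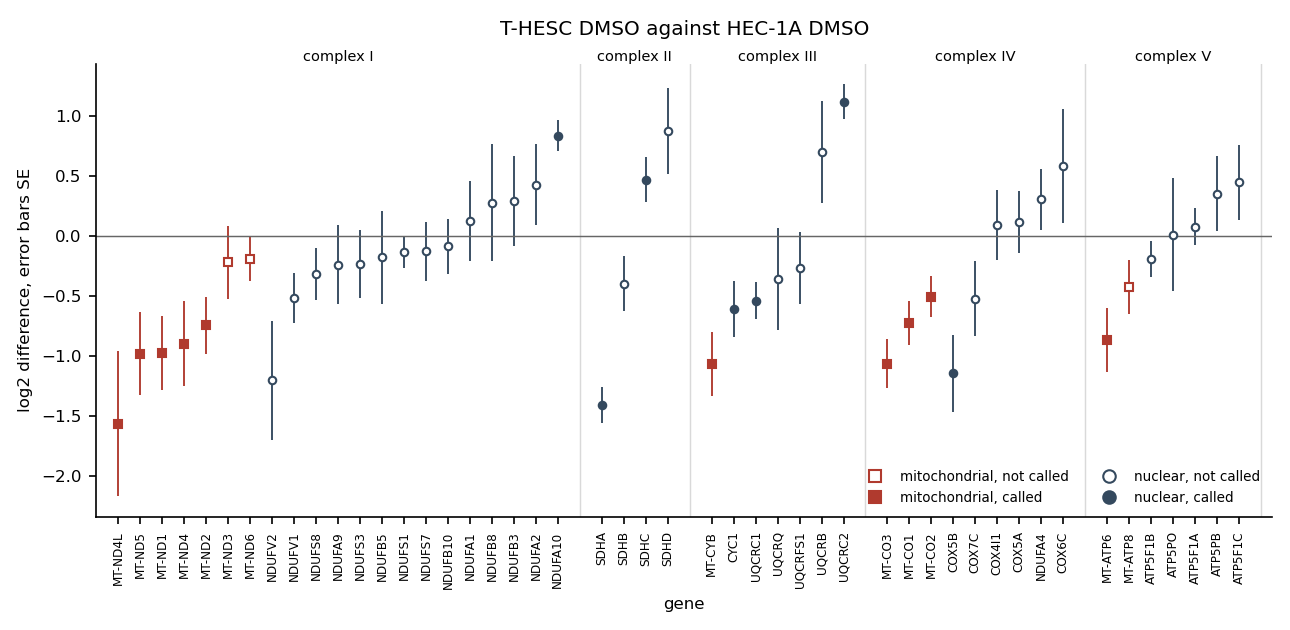
Log2 difference of T-HESC from HEC-1A in the DMSO groups (y axis, error bars SE) for the 48 members by complex, with squares for mitochondrial and circles for nuclear genes, filled where the adjusted p is under 0.05. All 13 squares lie below 0, from -1.56 (MT-ND4L) to -0.19 (MT-ND6), while circles run from -1.41 (SDHA) to 1.12 (UQCRC2).

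Nuclear members were called in both directions in complexes II and III. In complex II, SDHA had 404.6, 386.3 and 384.4 CPM in HEC-1A and 142.6, 150.8 and 147.0 CPM in T-HESC, 2.66-fold lower (log2 difference -1.41 ± 0.15, SE; adjusted p = 4.02e-06). SDHC, a membrane anchor of the same complex, was 1.38-fold higher in T-HESC (0.47 ± 0.19; adjusted p = 0.0479), and SDHD, the other anchor, gave 0.87 ± 0.36 (adjusted p = 0.0503). In complex III, UQCRC2 had 55.7, 54.9 and 48.8 CPM in HEC-1A and 111.6, 112.2 and 120.6 CPM in T-HESC, 2.17-fold higher (1.12 ± 0.14; adjusted p = 2.29e-05), whereas UQCRC1, which forms the core of the complex together with UQCRC2, was 1.45-fold lower (-0.54 ± 0.15; adjusted p = 0.00885) and CYC1 1.52-fold lower (-0.61 ± 0.23; adjusted p = 0.0382). In complex IV, COX5B, a zinc-binding subunit on the matrix side, had 188.6, 165.6 and 182.3 CPM in HEC-1A and 83.3, 84.8 and 73.4 CPM in T-HESC, 2.21-fold lower (-1.14 ± 0.32; adjusted p = 0.00807), and COX6C had the highest value of its complex (0.58 ± 0.48; adjusted p = 0.316). In complex I, NDUFA10 was 1.78-fold higher (0.83 ± 0.13; adjusted p = 0.000129), and NDUFV2 gave the lowest value (-1.20 ± 0.50; adjusted p = 0.0525) at 0.3 to 1.4 CPM. In complex V no nuclear member was called by edgeR's quasi-likelihood test, nor by DESeq2, with values from -0.19 (ATP5F1B) to 0.44 (ATP5F1C) and 0 at an unadjusted p under 0.05, against 31.3% of all genes higher and 31.8% lower. SDHA, COX5B, UQCRC1, NDUFA10 and UQCRC2 were called whichever library was left out, and SDHC and CYC1 were not. The HEC-1A DMSO libraries are shared by this comparison and that of AG-205 in HEC-1A, so the lower SDHA and CYC1 in both are not independent of each other. Since T-HESC AG-205 replicate 1 enters the spread of this fit, the calls were repeated without it, which gave 7 nuclear members higher and 9 lower, with 10 mitochondrial members lower, against 34.2% of all genes higher and 34.5% lower in that fit.

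The promoters printed here are those of the nuclear member with the smallest p between the DMSO groups in each of complexes I to IV, shown because sequence was not used to choose the members. Of the 35 nuclear members, 28 have a sequence of 250 bases before to 50 bases after the start in the RefSeq table (GRCh38.p14). Capitals mark motifs found on either strand: GCGCANGCG, bound by NRF1, CCGGAAG, bound by ETS family factors, and AAGATGGCG, bound by YY1. SDHA (chr5:218070-218369, plus strand) and COX5B (chr2:97645812-97646111, plus strand), both lower in T-HESC, are followed by UQCRC2 (chr16:21953111-21953410, plus strand) and NDUFA10 (chr2:240025293-240025592, minus strand), both higher. In complex V, where no nuclear member was called, the member with the smallest p was ATP5F1C, and its promoter is not printed. It gave 0.44, and its window holds the NRF1 motif.

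SDHA: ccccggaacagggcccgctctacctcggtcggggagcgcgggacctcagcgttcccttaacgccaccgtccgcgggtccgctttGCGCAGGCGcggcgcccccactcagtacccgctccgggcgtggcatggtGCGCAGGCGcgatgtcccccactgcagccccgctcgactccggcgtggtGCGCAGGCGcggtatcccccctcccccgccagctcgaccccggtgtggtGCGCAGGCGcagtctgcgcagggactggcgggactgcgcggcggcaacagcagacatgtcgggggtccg

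COX5B: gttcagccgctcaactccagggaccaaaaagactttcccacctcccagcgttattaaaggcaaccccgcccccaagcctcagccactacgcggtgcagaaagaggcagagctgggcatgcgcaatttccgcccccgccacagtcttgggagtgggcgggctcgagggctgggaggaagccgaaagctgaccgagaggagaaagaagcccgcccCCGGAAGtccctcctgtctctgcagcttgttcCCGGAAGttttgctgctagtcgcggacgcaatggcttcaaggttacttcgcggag

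UQCRC2: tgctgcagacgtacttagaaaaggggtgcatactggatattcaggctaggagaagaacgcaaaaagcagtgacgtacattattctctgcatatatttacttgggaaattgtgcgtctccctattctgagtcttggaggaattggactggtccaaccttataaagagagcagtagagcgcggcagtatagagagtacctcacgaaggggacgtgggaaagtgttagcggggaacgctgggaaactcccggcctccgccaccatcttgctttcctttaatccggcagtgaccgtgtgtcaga

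NDUFA10: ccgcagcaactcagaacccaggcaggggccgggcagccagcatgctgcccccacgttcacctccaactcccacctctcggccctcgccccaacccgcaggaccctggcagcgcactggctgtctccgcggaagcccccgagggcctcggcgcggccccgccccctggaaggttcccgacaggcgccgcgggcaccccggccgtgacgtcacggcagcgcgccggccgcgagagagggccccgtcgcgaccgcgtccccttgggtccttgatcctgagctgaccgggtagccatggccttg

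SDHA holds the NRF1 letters 4 times, each 49 bases after the one before, the first starting at position -166 and the last at -19 from the start site. COX5B holds the ETS letters 2 times, at -37 and -5, and the UQCRC2 and NDUFA10 windows hold none of the 3 motifs. UQCRC1, also lower in T-HESC (-0.54), holds NRF1 and YY1 letters. Among members without a call, SDHD (0.87) and ATP5F1C (0.44) hold motifs, whereas COX7C (-0.53) and NDUFV1 (-0.52) hold none. A relation of motifs to the direction between the lines was not tested. Over the members the NRF1 motif was found in 8 of 28 promoters, 28.6%, beside 8.05% of the 27305 promoters of the table. The ETS motif was found in 8 of 28, 28.6%, beside 10.7%, and the YY1 motif in 4 of 28, 14.3%, beside 1.85%. At least 1 of the 3 was found in 15 of 28 members, 53.6%, beside 18.3% of all promoters. These are matches of letters in these windows and not measured binding.

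Other genes of the same system gave a background for the members. Of 43 further nuclear subunits, 42 were tested: in HEC-1A 1 was higher with AG-205 and 0 lower, in T-HESC 0 were called, and between the DMSO groups 5 were higher and 4 lower in T-HESC. In HEC-1A this was 2.38% higher, against 7.35% of all genes higher and 4.28% lower. Between the DMSO groups it was 11.9% higher and 9.52% lower, against 29.3% and 29.5% of all genes. The 1 called in HEC-1A was UQCRH, the hinge subunit of complex III, whose reads may be shared with its near copy UQCRHL. It had 7, 2 and 5 counts in HEC-1A with DMSO and 13, 18 and 13 counts with AG-205, but 1246, 1279 and 960 counts in T-HESC with DMSO and 2524, 1398 and 870 counts with AG-205. HEC-1A libraries were thus near the limit of detection for this subunit (at most 1.53 CPM), while T-HESC libraries had at least 75.1 CPM, and the log2 difference of the DMSO groups was 7.94 ± 0.53 (SE; adjusted p = 4.86e-08). Of 7 alternate isoforms of complexes I and IV, 2 were tested between the lines and COX7A1, the muscle-type isoform of a complex IV subunit, was higher in T-HESC (8.59 to 12.6 CPM against 0.241 to 0.272 CPM with DMSO).

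Of 49 assembly factors, 48 were tested between the lines, with 4 higher and 16 lower in T-HESC, 8.33% and 33.3%, against 29.3% and 29.5% of all genes. COX11, which delivers copper to complex IV, gave -1.54 ± 0.14 (adjusted p = 8.71e-07), and the complex II factors SDHAF1 and SDHAF3 gave -1.42 and -1.57. With AG-205 in HEC-1A, 2 assembly factors were lower, LYRM7 (-0.46) and COA7 (-0.30), and 0 higher. These 2 were 4.26% of those tested, against 4.28% of all genes. Of 20 genes that replicate, transcribe or process mitochondrial DNA and RNA, 1 was higher and 7 lower in T-HESC, 5.0% and 35.0%, among them TWNK, the mitochondrial helicase (-1.74 ± 0.19; adjusted p = 5.03e-06), POLRMT, the mitochondrial RNA polymerase (-0.996), and LRPPRC, which binds mitochondrial mRNAs (-0.88). TWNK was also lower with AG-205 in HEC-1A (-0.41 ± 0.10; adjusted p = 0.0199), at 46.2, 41.9 and 37.2 CPM against 58.1, 55.8 and 57.7 CPM. MT-RNR1, the small mitochondrial rRNA, was higher with AG-205 in HEC-1A (0.61 ± 0.11; adjusted p = 0.00419), with 577.3, 647.2 and 612.7 CPM against 450.8, 348.4 and 436.9 CPM. MT-RNR2, the large one, gave 0.32 there and was not called. Both rRNAs are measured as what poly(A) selection leaves of them. The 2 genes of the carrier list, cytochrome c and the ATP synthase inhibitor, were not called in any comparison, and of 6 nuclear regulators tested 3 were lower in T-HESC than in HEC-1A (PPARGC1B, ESRRA and YY1), against 29.5% of all genes, and 0 were called with AG-205 in either line by edgeR's quasi-likelihood test, with 3 at an unadjusted p under 0.05 and 1 called by DESeq2 in HEC-1A. In T-HESC with AG-205, 0 of the 130 genes of these lists were called by edgeR or by DESeq2, and 1 had an unadjusted p under 0.05. By edgeR, 0.08% of all genes were called higher there, and 3.58% higher and 1.8% lower had an unadjusted p under 0.05.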

How the data were processed

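Poly(A) RNA of the 12 cultures was sequenced in pairs of reads, trimmed with Trimmomatic 0.38, aligned to GRCh38 with HISAT2 2.1.0 and counted per gene with featureCounts of Subread 2.0.0 on an Ensembl annotation, and the authors deposited these whole-number counts without normalization. Whether the counting used strand, and how it treated read pairs and reads with several matches, is not given in the sources used here.

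The tests were run in R 4.3.3 with edgeR 4.0.16 (TMM, filterByExpr, quasi-likelihood test, Benjamini-Hochberg adjustment over all genes tested), for AG-205 against DMSO in each line (14122 and 13753 genes) and, in a fit of all 12 libraries, for the difference of these effects and for the DMSO groups (16132 genes). A gene was called at an adjusted p under 0.05, without the fold limit of the study (a log2 fold change above 1 or below -1), which was an alternative. The SE was derived from the F value, and 95% intervals from the t distribution with the degrees of freedom of the fit. A gene with no library of a group above 3 counts was taken to be at the floor there. Libraries of a group come from separate cultures of 1 cell line, so p-values measure the spread between such cultures. A single gene cannot reach a p below 0.1 by exact permutation of 3 and 3 libraries, so the models across genes were used. The SD or range is over 3 libraries.

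Named genes were the 13 mitochondrial mRNAs in every comparison, the nuclear member with the smallest p per complex and comparison, the highest and lowest nuclear members per complex between the DMSO groups, and nuclear members called with a log2 fold change above 1 or below -1; other genes were named after their values were seen. The members and gene lists were chosen with earlier results of these data known. Positions, overlaps and canonical transcript lengths came from GENCODE 44, nuclear matches of mitochondrial genes from BLAST+ 2.17.0 (E value at most 1e-10), and promoters from RefSeq. Promoters of NDUFB5, SDHC, UQCRB, CYC1, NDUFA4, COX6C and ATP5F1B were not used here. Alternatives were RLE and upper-quartile scaling, totals without mitochondrial genes, DESeq2 1.42.0, 2 other filters, the replicate number as a block, limma 3.58.1 library quality weights, stricter calls, other sets of libraries, and, added after seeing the data, a correction for GC content and length (mgcv 1.9.3), fitted on deviations from the mean of each line, and T-HESC AG-205 replicate 1 set beside the other libraries of its group. The test was also run on simulated counts. They held no outlying library. For T-HESC and for the fit of all 12 libraries their spread was smaller than was measured. The run thus does not bear on those fits. Python 3.11.15 with matplotlib 3.10.9 made the plots.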

Additional observations from a re-analysis of the deposited data

Results flagged for a closer look

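PPARGC1B, a coactivator of the nuclear regulators of mitochondrial genes, was the gene among the lists examined whose AG-205 effect differed between the lines in the test of the difference (edgeR's quasi-likelihood test; fitted log2 difference 4.83 ± 0.81, SE; adjusted p = 0.0407). It had 228, 295 and 216 counts in HEC-1A with DMSO and 255, 257 and 99 counts with AG-205, and 0, 0 and 1 counts in T-HESC with DMSO and 5, 13 and 13 counts with AG-205. The DMSO libraries of T-HESC lay at or under the floor of 3 counts, so the fitted value depends on the prior count and is no bound on the fold. It was not tested within T-HESC, where its counts were too low. The call for the difference was lost with the replicate number as a block, where 0% of all genes were called higher. It was also lost without HEC-1A AG-205 replicate 1, HEC-1A DMSO replicate 1 or HEC-1A DMSO replicate 3, again with 0% higher.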

How the results depend on the processing

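With AG-205 in T-HESC and for the difference between the lines, 0 members were called under every alternative. In HEC-1A, 9 members were lower with library quality weights, 10 when libraries were corrected for GC content and length, an alternative chosen after seeing the data, 12 after that correction with the replicate block, 0 in the fit of all 12 libraries, 1 at an adjusted p under 0.01, 0 with the fold limit, and 1 to 13 when single libraries were left out. Among all genes, 12.2% were lower with library quality weights, 16.2% after the correction and 16.6% after it with the block. That share was 4.28% in the fit as reported, 0.0496% in the fit of all 12 libraries and 0.205% with the fold limit. With single libraries left out it was 0.978% to 13.3%. The members higher numbered 1 with DESeq2, with no filter on low counts, with library quality weights and after correction with the replicate block, and 0 to 1 with single libraries left out. The shares of all genes higher were 2.54%, 4.28%, 14.1% and 9.27% in that order, and 3.69% to 14.5% with single libraries left out. The shares with DESeq2 and with no filter are over 30803 genes, those with low counts included, against 14122 in the fit as reported. They are thus not like the other shares. Between the DMSO groups, mitochondrial members lower numbered 4 after correction for GC content and length within each line, 5 after it with the replicate block, 3 at an adjusted p under 0.01, 3 with the fold limit and 5 to 10 with single libraries left out. All genes lower made up 33.8% after the correction, 32.9% after it with the block and 22.2% with the fold limit. They made up 25.6% to 34.5% with single libraries left out. No share of all genes is given for the counts at an adjusted p under 0.01, here or in HEC-1A. Those counts thus have no background beside them. Nuclear members higher numbered 5 with no filter, 11 with library quality weights, 7 after the correction, 6 after it with the replicate block, 10 in the fit of the 6 DMSO libraries, 1 with the fold limit and 2 to 7 with single libraries left out. The shares of all genes higher were 15.6%, 37.8%, 32.3%, 31.5%, 36.1% and 22.1% in that order. With single libraries left out they were 25.6% to 34.2%. The share with no filter is over 34979 genes, those with low counts included, against 16132 in the fit as reported. Nuclear members lower numbered 8 with upper-quartile scaling, which moved the median of all genes to -0.18, 11 with library quality weights, 7 after the correction without and with the replicate block, 10 in the fit of the 6 DMSO libraries, 2 with the fold limit and 3 to 9 with single libraries left out. Of all genes, 34.1% were lower with upper-quartile scaling, 39.2% with library quality weights and 36.0% in the fit of the 6 DMSO libraries. The cause of these changes was not tested.

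The labels give the AG-205 and DMSO libraries the same replicate numbers. The deviations of same-numbered libraries correlated at -0.08, 0.23 and 0.0023 over 14122 genes in HEC-1A and at 0.22, -0.53 and -0.04 over 13753 genes in T-HESC, and not every AG-205 library correlated best with the DMSO library of its own number, so the numbers were not taken to pair the libraries. Which libraries share a culture experiment was not tested. With the replicate number as a block, 3 members were lower in HEC-1A, 0 were called in T-HESC, and 9 mitochondrial members were lower, 2 nuclear higher and 5 nuclear lower between the DMSO groups, where MT-ND4 and SDHC lost their calls and NDUFV1 gained one. Of all genes, 3.64% were lower in HEC-1A with the block, and 28.1% were higher and 28.3% lower between the DMSO groups.

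Log2 fold changes of some named genes turned their sign, none of them called in the fits as reported, and none did so between the DMSO groups. With RLE size factors, in HEC-1A MT-ATP8 (-0.0023). With DESeq2, in HEC-1A MT-ATP8 (-0.015) and MT-CO1 (-0.0022). With a mean of at least 1 CPM, in HEC-1A MT-ATP8 (-0.0057). With the replicate number as a block, in HEC-1A MT-ATP8 (-0.0024) and in T-HESC MT-ND4L (-0.065) and MT-ND5 (-0.072). With library quality weights, in HEC-1A MT-ATP8 (-0.033) and MT-CO1 (-0.0064), in T-HESC ATP5PO (-0.13), COX6C (-0.051), MT-ATP6 (0.021), MT-CO1 (0.064), MT-CO2 (-0.13), MT-CYB (0.070), MT-ND1 (0.30), MT-ND2 (0.22), MT-ND3 (-0.18), MT-ND4 (0.34), NDUFA9 (-0.0015) and UQCRQ (-0.037) and for the difference MT-ATP6 (0.11), MT-CO1 (0.093), MT-ND1 (0.14), MT-ND3 (-0.16), MT-ND4 (0.39) and MT-ND5 (0.45). After correction for GC content and length, in HEC-1A MT-ATP8 (-0.11), MT-CO1 (-0.068), MT-CO2 (-0.085) and MT-ND3 (-0.082), in T-HESC MT-CO2 (-0.18) and MT-ND3 (-0.13) and for the difference MT-ND3 (-0.015) and MT-ND5 (0.0033). After that correction with the replicate block, in HEC-1A MT-ATP8 (-0.11), MT-CO1 (-0.066), MT-CO2 (-0.084) and MT-ND3 (-0.077), in T-HESC MT-CO2 (-0.22), MT-ND3 (-0.13), MT-ND4L (-0.16) and MT-ND5 (-0.16) and for the difference MT-ND3 (-0.0071). With upper-quartile scaling, in T-HESC MT-CO2 (-0.035) and MT-ND5 (-0.013). With no filter on low counts, in T-HESC MT-CO2 (-0.013) and for the difference MT-CO2 (0.018) and MT-ND5 (0.0057). With single libraries left out, the ranges crossed 0 as follows. In HEC-1A, MT-ATP6 (-0.12 to 0.0052), MT-ATP8 (-0.12 to 0.13), MT-CO1 (-0.053 to 0.084), MT-CO2 (-0.028 to 0.11), MT-ND3 (-0.077 to 0.17) and MT-ND4 (-0.075 to 0.0068). In T-HESC, ATP5PO (-0.29 to 1.07), COX6C (-0.23 to 1.27), MT-CO1 (-0.30 to 0.0036), MT-CO2 (-0.10 to 0.071), MT-CYB (-0.38 to 0.10), MT-ND1 (-0.44 to 0.24), MT-ND2 (-0.43 to 0.12), MT-ND3 (-0.29 to 0.45), MT-ND4 (-0.57 to 0.23), MT-ND4L (-0.29 to 0.93), MT-ND5 (-0.27 to 0.38), NDUFA9 (-0.084 to 0.81) and UQCRQ (-0.29 to 1.01). For the difference, ATP5PB (-0.14 to 0.73), MT-ATP6 (-0.55 to 0.065), MT-CO1 (-0.30 to 0.013), MT-CO2 (-0.10 to 0.060), MT-CYB (-0.49 to 1.7e-05), MT-ND1 (-0.58 to 0.11), MT-ND3 (-0.33 to 0.40), MT-ND4 (-0.50 to 0.30) and MT-ND5 (-0.33 to 0.32).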
